A study of Homo sapiens with 6 samples.

Results

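8 transcription factors that mark the gut endoderm and the intestinal epithelium were followed by name: the caudal-type homeobox factors CDX1 and CDX2, the nuclear receptors HNF4A and HNF4G, the zinc finger factor GATA6, and the forkhead factors FOXA1, FOXA2 and FOXA3. All 8 were found, each as a single row, among 31164 genes with an FPKM value (a count of fragments scaled to transcript length and to the mapped total of the library). The cells are labelled HT29, an established human colorectal cancer line, in 2 groups of 3 libraries of poly-A RNA. Several defining intestinal markers were near 0 in all 6 libraries, so the labelled identity is given as the labels state it and was not tested. The libraries named shNC, of wild-type genotype by their labels, are the controls, and the shHMGA1 libraries came from cells with a stable knockdown of HMGA1, an architectural protein of chromatin with a preference for AT-rich DNA. Both groups are labelled as untreated. The labels do not say whether the stable cells were pools or clones, how many hairpin sequences were used, or whether the replicates were separate cultures, so each p-value reflects only how far these 6 libraries scatter, and that scatter may be technical. 5 of the 8 factors reached a mean of 1 FPKM over the 6 libraries, the level from which genes were tested. HNF4G, FOXA2 and CDX1 did not and are given as values.

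These factors act as a layered network. FOXA and GATA factors open chromatin in early endoderm, CDX2 sets the intestinal as opposed to the gastric fate and holds it in the adult, and HNF4A and HNF4G together sustain the enterocyte programme of absorption and brush border formation. CDX1 is the close relative of CDX2 and is highest toward the crypt base, and GATA6 serves crypt cells along the gut. HNF4A is transcribed from a pair of promoters, called P1 and P2, that give receptors with different amino ends. The series asks how HMGA1 affects expression across the genome.

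The promoters are shown for the 2 factors called different between the groups in the main fit, HNF4A and FOXA3, and for CDX2, the most abundant of the 8. Neither call held in every alternative fit. RefSeq windows (GRCh38.p14) were analysed here for 5 of the 8 factors. Those of the other factors were absent from the source or left out, and none was printed for them. Each sequence is the 250 bases before an annotated start, 5′ to 3′ on the gene's strand. Capitals mark exact matches, on either strand, to short core motifs of these families: a CDX core (TTTATG), a core bound by GATA factors (AGATAA), a forkhead core (TGTTTAC) and one bound by HNF4 receptors (CAAAGTCCA).

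HNF4A, upstream start (P2), chr20:44355449-44355698, plus strand: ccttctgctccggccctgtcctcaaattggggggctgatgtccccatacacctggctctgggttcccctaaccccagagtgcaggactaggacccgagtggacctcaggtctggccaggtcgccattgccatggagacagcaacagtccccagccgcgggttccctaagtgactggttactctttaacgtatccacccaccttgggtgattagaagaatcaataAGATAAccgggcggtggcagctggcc

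HNF4A, downstream start (P1), chr20:44400989-44401238, plus strand: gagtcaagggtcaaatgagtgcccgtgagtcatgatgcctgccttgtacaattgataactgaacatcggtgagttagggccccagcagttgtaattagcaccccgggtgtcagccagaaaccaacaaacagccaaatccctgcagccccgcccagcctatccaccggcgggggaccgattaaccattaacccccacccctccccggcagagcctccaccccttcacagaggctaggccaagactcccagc

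FOXA3, chr19:45864076-45864325, plus strand: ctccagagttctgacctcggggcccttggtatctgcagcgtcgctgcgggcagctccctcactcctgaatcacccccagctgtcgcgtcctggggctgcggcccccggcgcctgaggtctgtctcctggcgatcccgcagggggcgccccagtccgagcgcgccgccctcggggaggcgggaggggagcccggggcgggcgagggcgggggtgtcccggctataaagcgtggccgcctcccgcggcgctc

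CDX2, chr13:27969316-27969565, minus strand: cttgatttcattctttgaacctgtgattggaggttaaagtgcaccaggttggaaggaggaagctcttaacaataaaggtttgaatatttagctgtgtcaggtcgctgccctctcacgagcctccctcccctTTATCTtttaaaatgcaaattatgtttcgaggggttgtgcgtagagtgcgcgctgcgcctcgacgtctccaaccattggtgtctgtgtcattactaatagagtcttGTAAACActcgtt

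The upstream HNF4A window held 1 GATA match, starting 26 bases before the start, and the downstream window held no match. The CDX2 window held a GATA match 119 bases and a FOXA match 13 bases before the start. The FOXA3 window held none of the 4 motifs. Over all 35116 RefSeq windows of the same length, the GATA letters occurred in 9.17%, the FOXA letters in 2.98%, the CDX letters in 9.64% and the HNF4 letters in 0.325%. None of the windows shown overlaps the letters of 2 motifs. The share of A and T was 41.6% and 42.0% in the HNF4A windows, 24.8% in that of FOXA3 and 54.8% in that of CDX2, against a median of 42.0% over all windows. A match is a match of letters and says nothing of occupancy, and no binding was measured here.

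The targeted gene followed its label: HMGA1 lay at 785.21, 809.56 and 854.4 FPKM in shNC and 465.29, 565.19 and 507.95 in shHMGA1, or 62.8% of the control mean (log2 fold change -0.67, SE 0.08, adjusted p = 0.0018 in limma). Genes listed at 0 numbered 5747 to 6542 in shNC and 6807 to 7116 in shHMGA1, more in each knockdown library than in any control. Low values put depth, relative to shNC replicate 1, at 0.84 to 1 in shNC and 0.71 to 0.83 in shHMGA1. The shallowest was shHMGA1 replicate 1. Depth thus went with group, and its part in differences of low values was not tested. These depths are rough. Each rests on the most common ratio of low values to shNC replicate 1, held by 16 to 28 of 417 to 533 genes. Correlations of log2(FPKM + 1) were 0.98 to 0.988 within groups and 0.973 to 0.977 between them. Mitochondrially encoded genes took 11.4% to 13.5% of the FPKM total in shNC and 8.5% to 12.5% in shHMGA1.

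In the control cells CDX2 stood highest of the 8 factors, at 7.63 ± 0.784 FPKM (SD, n = 3). FOXA3 and GATA6 followed at 3.79 and 3.77 FPKM, with ranges that overlapped. HNF4A came next at 2.03 FPKM, then FOXA1 at 0.997 and HNF4G at 0.803, whose ranges overlapped. FOXA2 stood at 0.41 FPKM and CDX1 was listed at 0 in each control library. No other neighbours in this order overlapped. All 8 are levels scaled to transcript length. Even CDX2 lay only at the 71.5th percentile of mean level among all 31164 genes. In the knockdown cells CDX2 remained highest at 8.11 FPKM, and FOXA3, at 4.90, no longer overlapped GATA6, at 3.33. HNF4A, at 1.03, now ranked beside FOXA1, at 1.11, with overlapping ranges.

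**Figure D1:**
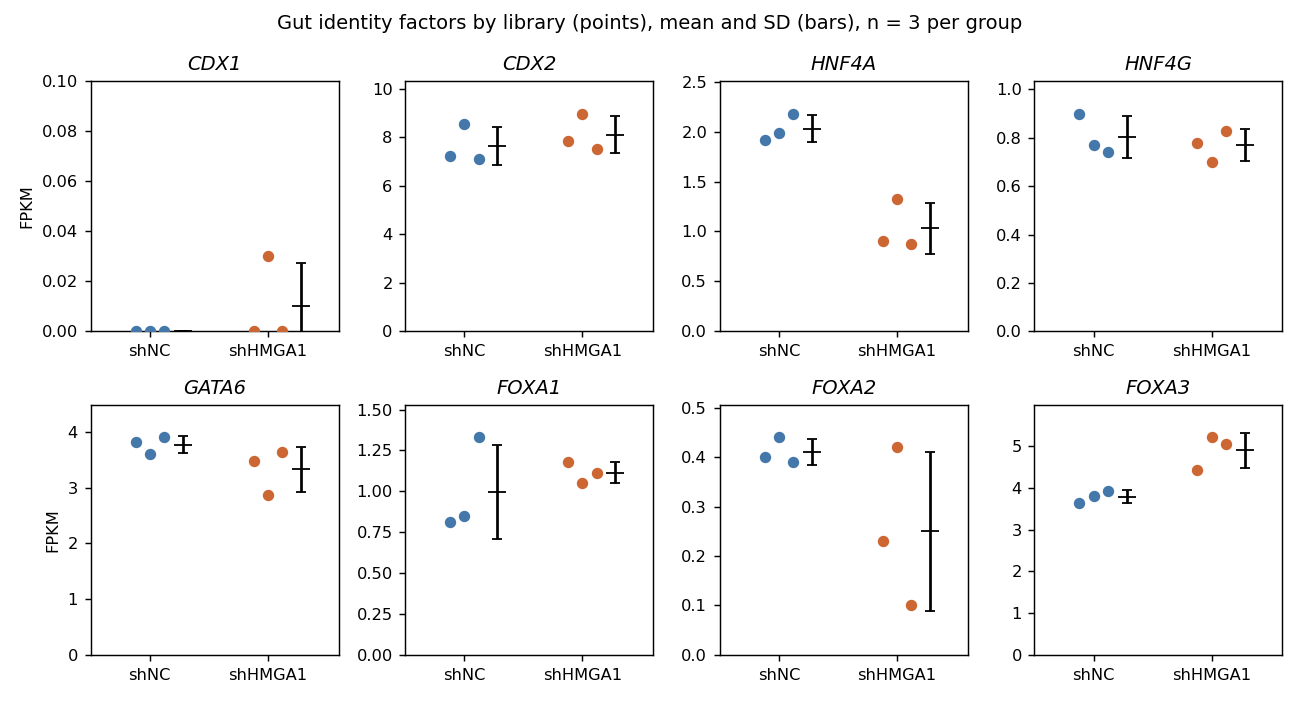
FPKM of each factor by library, with points for the 3 shNC (blue) and 3 shHMGA1 (orange) libraries and bars for the mean and SD; each panel starts at 0 and has its own scale. HNF4A lies at 1.92 to 2.18 in shNC and 0.87 to 1.32 in shHMGA1, FOXA3 at 3.63 to 3.93 and 4.43 to 5.21, and the groups overlap for the other 6 factors.

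Of the 5 factors tested, 1 fell (HNF4A), 1 rose (FOXA3) and 3 did not pass (CDX2, GATA6 and FOXA1), at an adjusted p under 0.05 over all 14304 genes tested. Across all tested genes 16.1% were called higher and 12.3% lower in shHMGA1, so 1 of 5 in each direction is close to the rate of the whole table. Groups that did not overlap were found for the same 2 factors. Among all tested genes 25.4% had every shHMGA1 library above every shNC library and 20.5% had every one below. The median log2 fold change of the 5 was 0.08, beside 0.02 for all genes tested.

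HNF4A, the receptor that keeps enterocyte genes active, fell to 50.7% of its control level. It was at 1.92, 1.99 and 2.18 FPKM in shNC replicates 1 to 3 and at 0.90, 1.32 and 0.87 FPKM in shHMGA1 replicates 1 to 3. The groups did not overlap, and shHMGA1 replicate 2 was the nearest to the controls. The log2 fold change of FPKM + 1 was -0.58 (SE 0.13, 95% interval -0.88 to -0.28, adjusted p = 0.0159 in limma). Because the added 1 FPKM is large beside these levels, the same difference was -0.94 with a pseudocount of 0.1 and -0.996 with 0.01, the last chosen after seeing the data, and both were called. In the authors' deposited table the levels, on a normalized count scale, were 222.6 and 101.7, with a log2 fold change of -1.13 and an adjusted p of 2.67e-08. Of all genes given an adjusted p by the authors, 17.5% were higher and 16.7% lower at under 0.05. The call by FPKM was lost in limma without any 1 of the 3 control libraries or without shHMGA1 replicate 3 (adjusted p from 0.0503 to 0.0561), with differences between -0.61 and -0.53 in those 4 fits. HNF4A (ENSG00000101076.16) spans chromosome 20 from 44355700 to 44434596 in hg38, with 9 transcripts and 6 start positions over 45.6 kb in GENCODE 29. FPKM was given per gene, so RNA from P1 and from P2, whose windows are printed above, was not told apart.

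HNF4G, the intestinal partner of HNF4A with largely shared targets, was at 0.90, 0.77 and 0.74 FPKM in shNC and 0.78, 0.70 and 0.83 in shHMGA1. The groups overlapped in part, with shNC replicate 1 the highest and shHMGA1 replicate 2 the lowest, and the knockdown mean was 95.9% of control. Without a filter on low values the interval of the difference on the log2(FPKM + 1) scale was -0.23 to 0.18 (adjusted p = 0.891 in limma). Within each library the log2 ratio of HNF4G to HNF4A, with 1 added to both, was -0.62, -0.76 and -0.87 in shNC and -0.09, -0.45 and -0.03 in shHMGA1. The ratio was thus higher in every knockdown library, with no overlap, and moved by 0.56. An exact two-sided permutation test gave p = 0.1, the smallest that 3 against 3 allows, and 0.25 after Benjamini-Hochberg adjustment over the 5 pairs of factors compared. HNF4G lies on chromosome 8 from 75407914 to 75566843.

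**Figure D2:**
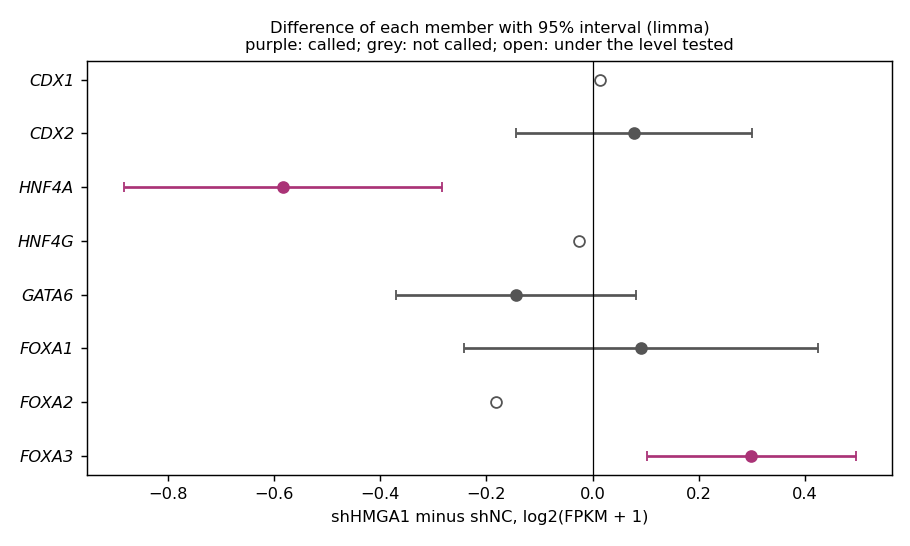
Difference of each factor between shHMGA1 and shNC in log2(FPKM + 1), with 95% limma intervals for the 5 tested factors and open circles without intervals for the 3 under 1 FPKM. HNF4A at -0.58 and FOXA3 at 0.30 have intervals clear of 0, and the intervals of CDX2, GATA6 and FOXA1 include it.

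CDX2, the factor that specifies intestine, was at 7.23, 8.53 and 7.12 FPKM in shNC and 7.85, 8.97 and 7.50 in shHMGA1. The groups overlapped, and replicate 2 was the highest of its group in both. The log2 fold change was 0.08 (SE 0.09, 95% interval -0.14 to 0.30, adjusted p = 0.561), so on this scale a fall beyond -0.14 or a rise beyond 0.30 lay outside the interval. With 1 library left out it ran from 0.01 to 0.15. CDX2 (ENSG00000165556.9) lies on chromosome 13 from 27962137 to 27971139. CDX1 was listed at 0 in 5 of 6 libraries and at 0.03 FPKM in shHMGA1 replicate 2, so no fold was computed. The authors' deposited table gave CDX1 levels of 0.108 and 0.223 against 407 and 475 for CDX2. CDX1 lies on chromosome 5 from 150166795 to 150184558.

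GATA6, a zinc finger factor of endoderm and crypt cells, was at 3.81, 3.60 and 3.90 FPKM in shNC and 3.48, 2.87 and 3.63 in shHMGA1. 2 knockdown libraries lay below all controls and the other lay among them. The log2 fold change was -0.14 (SE 0.10, 95% interval -0.37 to 0.08, adjusted p = 0.297), and it ran from -0.20 to -0.07 with 1 library left out, the smallest without shHMGA1 replicate 2. GATA6-AS1, a divergent noncoding transcript on the opposite strand, was at 0.36, 0.33 and 0.36 FPKM in shNC and 0.15, 0.17 and 0.31 in shHMGA1. These groups did not overlap, but lay below the level tested. Exons of GATA6 (chromosome 18 from 22169443 to 22202528) overlap those of GATA6-AS1, and reads there may not be separable if strand was not used in counting. The within-library log2 ratio of GATA6 to HNF4A was 0.66 ± 0.06 in shNC and 1.09 ± 0.31 in shHMGA1, without overlap (exact permutation p = 0.1, 0.25 adjusted over the 5 pairs). This ratio and that of HNF4G to HNF4A share HNF4A as divisor, so neither is separate from the fall of HNF4A.

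The relatives of GATA6 were uneven in level. GATA2, best known from blood and trophoblast, was at 13.0 ± 0.27 FPKM in shNC and 12.6 ± 0.86 in shHMGA1, above any of the 8 gut factors, and did not pass (log2 fold change -0.05, adjusted p = 0.588). GATA3, a factor of T cells and of breast and urothelial epithelium, was at 1.44 ± 0.36 and 1.12 ± 0.18 FPKM (adjusted p = 0.362). GATA4, the partner of GATA6 in stomach and upper intestine, was listed at 0 in 5 of 6 libraries, and GATA1 reached 0.11 FPKM at most.

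FOXA3, a forkhead factor shared by liver and gut, rose. It was at 3.63, 3.81 and 3.93 FPKM in shNC and 4.43, 5.21 and 5.06 in shHMGA1, with each knockdown library above each control library and a mean of 129% of control. The log2 fold change was 0.30 (SE 0.08, 95% interval 0.10 to 0.50, adjusted p = 0.0363 in limma). The call was lost without a filter (adjusted p = 0.0949) and without any single library other than shHMGA1 replicate 1 (0.0688 to 0.119). In the fits that lost it the difference was between 0.26 and 0.32. The authors' deposited table gave 0.34 with an adjusted p of 0.0737, also short of 0.05. FOXA3 (ENSG00000170608.3) lies on chromosome 19 from 45863989 to 45873797.

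FOXA1, a pioneer factor that opens chromatin for nuclear receptors, was at 0.81, 0.85 and 1.33 FPKM in shNC and 1.18, 1.05 and 1.11 in shHMGA1. The highest and the lowest value were both from control libraries. The log2 fold change was 0.09 (95% interval -0.24 to 0.42, adjusted p = 0.659), or 0.03 to 0.21 with 1 library left out, and the control mean of FOXA1 alone was below the tested level of 1 FPKM. Its exons on chromosome 14 (37589984 to 37596059) overlap TTC6 on the opposite strand, which was at 0.01 FPKM or 0. FOXA2, the earliest of the 3 in endoderm, was at 0.40, 0.44 and 0.39 FPKM in shNC and 0.23, 0.42 and 0.10 in shHMGA1. 2 knockdown libraries lay under all controls and replicate 2 lay among them. Without a filter its interval was -0.42 to 0.06 (adjusted p = 0.354), and with 1 library left out the difference ran from -0.28 to -0.09. The ratio of FOXA2 to FOXA1 differed by -0.27 and that of FOXA3 to FOXA1 by 0.21 on the log2 scale, with overlapping groups (exact permutation p = 0.2 and 0.3, 0.333 and 0.375 adjusted over the 5 pairs). FOXA2 lies on chromosome 20 from 22581005 to 22585455, and its exons overlap those of AL121722.1 on the same strand, so reads there cannot be assigned by strand.

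Among 27 other transcription factors of the intestinal epithelium that are reported here, 24 were in the table and 12 were tested. Of the 12 tested, 6 fell, 2 rose and 4 did not pass, against 12.3% lower and 16.1% higher among all genes tested. The list was chosen with earlier results of these data known, so these counts describe the listed genes only. Their median log2 fold change was -0.19 beside 0.02 for all genes. EHF, an ETS factor of epithelial differentiation, fell from 42.9 ± 1.08 to 15.9 ± 1.29 FPKM (-1.38 on the log2 scale with SE 0.07, adjusted p = 0.000177). HES1, a Notch target that favours absorptive over secretory fate, fell from 36.9 ± 0.99 to 18.9 ± 1.98 FPKM (-0.93). SOX9, a factor of crypt progenitors and Paneth cells, fell from 45.1 ± 0.57 to 29.3 ± 3.15 FPKM (-0.61). KLF4, which restrains division in differentiating cells, fell from 12.3 ± 0.61 to 7.23 ± 1.28 FPKM (-0.70). The 2 that rose, named after their values were seen, were the progenitor factor MYB, from 3.18 ± 0.33 to 5.32 ± 0.74 FPKM (0.59), and TCF7L2, the Wnt effector, from 61.1 ± 0.49 to 70.1 ± 3.09 FPKM (0.19). The 12 listed factors under 1 FPKM included ATOH1, SPDEF, ISX and ASCL2, none above 0.19 FPKM in any library (named after their values were seen). The count of 6 ran from 4 to 7 with 1 library left out. The count of 2 was 1 in 4 of the leave-one-out fits, and also with quantile scaling and without mitochondrially encoded genes.

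**Figure D3:**
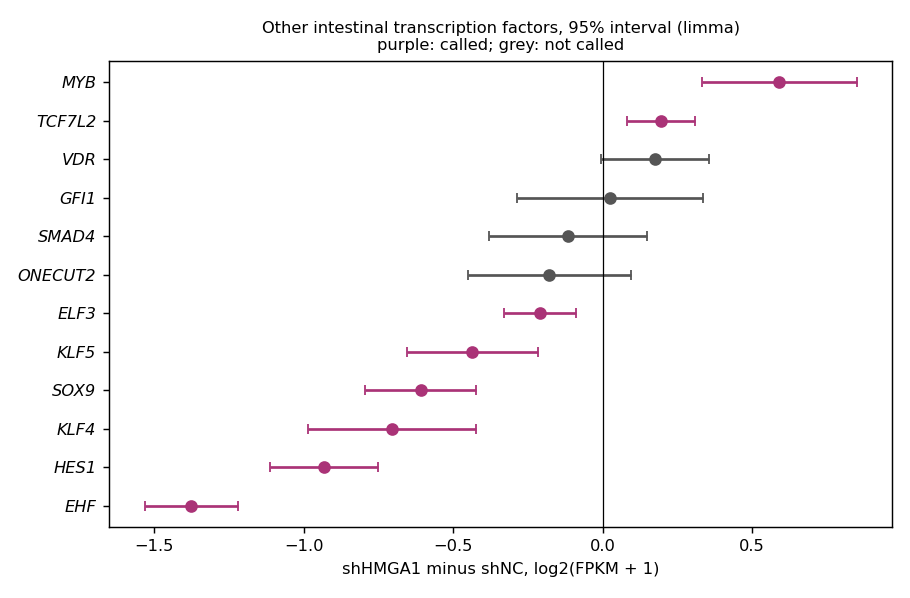
Difference between shHMGA1 and shNC in log2(FPKM + 1) for the 12 other intestinal transcription factors tested and reported here, with 95% limma intervals and called genes in purple. EHF at -1.38 and HES1 at -0.93 are the lowest, and MYB at 0.59 is the highest.

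The genes that these factors are known to drive in gut were mostly near 0 in both groups. Of 41 listed targets of CDX2, HNF4A and their partners, 26 were in the table and 3 reached a mean of 1 FPKM over the 6 libraries. 6 exceeded 0.5 FPKM in any library, and the highest, USH1C, had a mean of 13.3 FPKM. Several markers of intestinal epithelium were at or near 0. The brush border protein VIL1 was at 0.09 FPKM or less, the adhesion protein CDH17 at 0.22 or less and the lectin LGALS4 at 0.18 or less. The colon antigen GPA33, not among the planned markers, was at 0.11 or less. KRT20, a keratin of surface enterocytes, was at 1.00 ± 0.15 and 1.00 ± 0.12 FPKM. General epithelial markers were high, with KRT8 at 1492 ± 69.2 FPKM and EPCAM at 197 ± 2.54 in shNC. General epithelial markers were thus abundant, and VIL1, CDH17, LGALS4 and GPA33 were near 0, in control and knockdown cells alike. KRT20, USH1C and DPP4 of the same list averaged 1 FPKM or more.

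Of the 3 targets tested, USH1C, a scaffold of brush border links, was the 1 called. Among all genes tested 12.3% were called lower. USH1C fell from 16.1 ± 1.47 to 10.5 ± 0.37 FPKM (-0.57 on the log2 scale with SE 0.08, adjusted p = 0.0031). DPP4, a brush border peptidase, was at 2.79 ± 0.20 and 2.51 ± 0.66 FPKM (adjusted p = 0.553). In a limma fit of all 31164 genes without a filter, 4.32% were called lower, and 3 targets were among them, USH1C with HEPH and CFTR (named after their values were seen). HEPH, an iron oxidase of enterocytes, was at 1.12, 1.58 and 1.22 FPKM in shNC and 0.32, 0.58 and 0.31 in shHMGA1 (adjusted p = 0.025 in that fit). CFTR, the epithelial chloride channel, was at 0.67 ± 0.12 and 0.26 ± 0.10 FPKM (adjusted p = 0.0463).

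**Figure D4:**
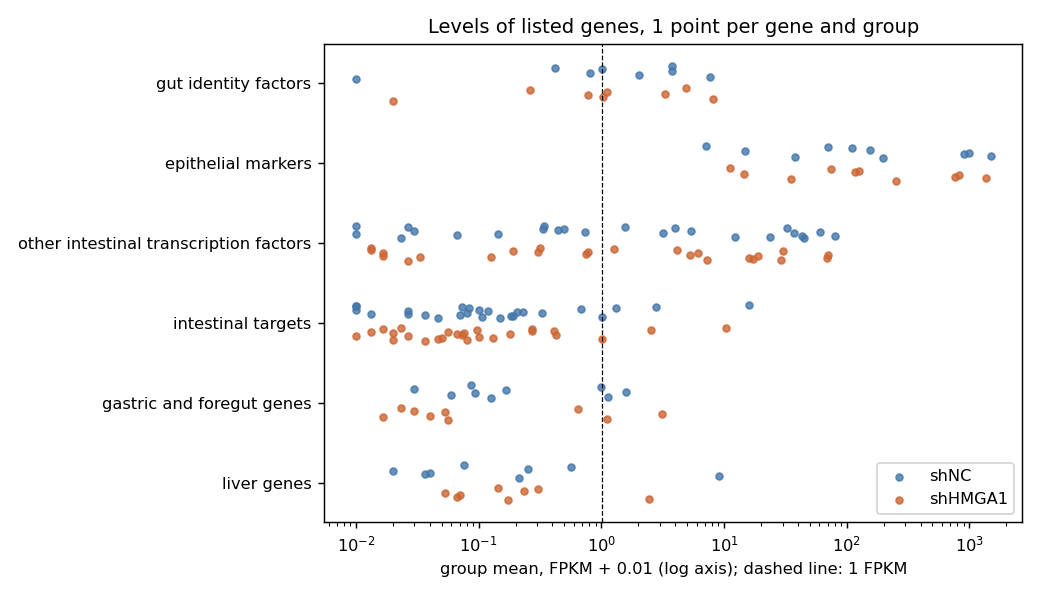
Mean FPKM of each listed gene in shNC (blue) and shHMGA1 (orange), 1 point per gene and group, on a log axis after adding 0.01, with a dashed line at 1 FPKM. General epithelial markers reach a mean of 1430 FPKM over the 6 libraries, the highest of the 8 gut identity factors is at 7.87, and 23 of the 26 intestinal targets have a mean over the 6 libraries under 1.

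Genes of the neighbouring endoderm fates were also low. Only 2 gastric and foregut genes and 1 liver gene reached the tested level. Among all genes tested 16.1% were called higher and 12.3% lower. Of 9 gastric and foregut genes in the table, 2 were tested: ANXA10, a gastric annexin, rose from 1.57 ± 0.26 to 3.10 ± 0.66 FPKM (0.67 on the log2 scale with SE 0.15, adjusted p = 0.0159), and PDX1, a factor of pancreas and duodenum, was at 1.13 ± 0.09 and 1.11 ± 0.10 FPKM (adjusted p = 0.939). ANXA10 was not called without shNC replicate 1 or 3, without shHMGA1 replicate 3, or without a filter. SOX2, which sets the gastric fate that CDX2 opposes, was at 0.13 FPKM or less in each library. Its knockdown libraries all lay below its controls, as did those of CLDN18, VSIG1, NKX2-1 and BARX1. These genes averaged under 1 FPKM and were not tested, and the groups of MUC6 and CTSE overlapped. Among all tested genes 20.5% had every shHMGA1 library below every shNC library. Of 8 liver genes in the table, SERPINA1, a protease inhibitor made by liver and gut and a known target of HNF4A, fell from 9.15 ± 0.70 to 2.45 ± 0.19 FPKM (-1.56 on the log2 scale with SE 0.09, adjusted p = 0.000252), and the other 7 were under 1 FPKM.

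Of 10 general epithelial markers, 2 rose (EPCAM, 128% of control, and GRHL2, 156%), 3 fell (among them KRT18, 84.0%, and KRT19, 82.2%) and 5 did not pass, against 16.1% higher and 12.3% lower among all genes tested. Their summed level was 3819 to 4188 FPKM in shNC and 3483 to 3651 in shHMGA1, mostly KRT8, KRT18 and KRT19. Summed levels of 7 fibroblast markers were 11.1 to 11.8 FPKM in shNC and 7.68 to 12.2 in shHMGA1, mostly COL1A1. COL3A1 was higher in each knockdown library, at 0.18 ± 0.01 and 0.89 ± 0.07 FPKM. The 7 immune markers summed to 2.04 to 2.27 and 1.84 to 2.54 FPKM, mostly CD68, with PTPRC at 0.01 or 0, and the 4 endothelial markers, led by VWF and KDR, to 0.31 to 0.38 and 0.25 to 0.33. In bulk RNA fewer cells of a kind and less RNA per cell cannot be told apart, and the part of any such shift in the results above was not tested.

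The genes whose pattern over the 6 libraries lay nearest to each tested factor were found by the root-mean-square difference of log2(FPKM + 1), each gene centred on its own mean. The search covered the 10319 tested genes that averaged 5 FPKM or more, a level that HNF4A, FOXA1, GATA6 and FOXA3 do not reach themselves. For HNF4A these were DBP, a circadian transcription factor, at 0.03, SCPEP1, a serine carboxypeptidase, at 0.05, and VWA5A at 0.06. DBP fell from 23.3 to 15.3 FPKM, or 65.6% of control. SCPEP1 fell to 65.8% and VWA5A to 64.7%, beside 50.7% for HNF4A. The added 1 FPKM shrinks the fold of low genes, so closeness on this scale is not an equal fold. For CDX2 they were TMEM126A, COG1 and POGK (0.03 to 0.04), and for GATA6 they were ATG2A, MSLN and PCDH1 (0.01 to 0.03). For FOXA1 they included PHGDH and ATG9A (0.04 to 0.05), and for FOXA3 they included PDRG1 and MCRS1 (0.01 to 0.02). With 6 libraries such closeness is a description of these profiles.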

How the data were processed

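Poly-A RNA of 6 HT29 libraries was sequenced on an MGI platform, per the labels' protocols. Groups and replicate numbers were read from the sample titles. The authors deposited FPKM per gene and library, per the file headers, and the submitters' processing notes name hg38. The sources used here do not give the aligner, counter, strand setting or annotation. The same table gives the authors' group level, a signal on a normalized count scale, as well as a log2 fold change by the authors and their deposited p-value, raw and adjusted, from a test that is not named. FPKM hides read counts, and only relative depth could be read, from the steps between low values.

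Here log2(FPKM + 1) was fitted by group with limma 3.58.1 (R 4.3.3), moderated with a mean-variance trend. The 14304 genes averaging 1 FPKM or more were tested two-sided, with Benjamini-Hochberg adjustment over all of them. Every adjusted p without another source is from this fit. Such fold changes understate those of low genes. Ratios used exact permutation tests (scipy 1.17.1). The limma step was tested on simulated data. Coordinates and overlaps are from GENCODE 29 (GRCh38), matched by Ensembl ID. Alternatives were pseudocounts, filters, scalings, the replicate block, variance models and leaving out each library, with 2 added after seeing the data. The factors and gene lists were chosen with earlier results of these data known. Named were all 8 factors, their family relatives, up to 4 called genes with the lowest adjusted p per list (or the 2 most abundant) and the 3 nearest profiles per factor, of which 1 is left out for want of an established symbol. A few genes of these lists and profiles are not reported here. List genes absent from the table, and 3 listed transcripts over 200 kb from any of the 8 or without a place beside them, were not analysed here.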

Additional observations from a re-analysis of the deposited data

How the results depend on the processing

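No called result changed direction. Of the uncalled values 2 changed sign, HNF4G, from -0.0518 to 0.0117 with 1 library left out, and the log2 ratio of CDX1 to CDX2, at 0.0385 with a pseudocount of 0.1. The numbers shared by replicates gave no sign of pairing the libraries. Deviations from the group means correlated at 0.02, -0.036 and 0.041 between same-numbered libraries, and not every library correlated best with its own number. With 3 libraries a group this cannot show whether same-numbered libraries were prepared together. The replicate block left HNF4A called and FOXA3 at 0.2987 (adjusted p = 0.0589 in limma), so 0 of the 8 factors were called higher. With no filter FOXA3 was also 0.2987 (adjusted p = 0.0949), and 0 factors were called higher, 1478 of all genes higher, 3 targets lower, 0 gastric genes higher and 1 epithelial marker lower. At a mean of 5 FPKM or more, 0 factors were called in either direction, 0 gastric genes higher and 1 other transcription factor higher, as fewer genes were tested. That last count was also 1 with quantile scaling, the replicate block and without mitochondrially encoded genes (added after seeing the data). With TPM 2 targets were lower. With a pseudocount of 0.1, CDX1 differed by 0.126 and FOXA2 by -0.649, and with 5, FOXA2 by -0.0438. With pseudocounts of 0 and 0.1 the log2 ratio moved by 0.944 and 0.882 for HNF4G to HNF4A, -1.14 and -0.825 for FOXA2 to FOXA1, and 0.816 and 0.753 for GATA6 to HNF4A. Leaving out 1 library gave -0.6839 to -0.5283 for HNF4A, 0.2606 to 0.3574 for FOXA3, 1138 to 2626 genes higher and 952 to 1973 lower. Counts then ran from 0 to 1 for factors higher, factors lower and gastric genes higher. They ran from 1 to 2 for other transcription factors higher, 4 to 7 for those lower, and 1 to 3 for epithelial markers lower. The cause of these shifts was not tested. 3 libraries a group and FPKM without counts limit what could be called below 1 FPKM.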
